A study of Rattus norvegicus with 30 samples.

Results

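The comparison described here is whole rat stomach 72 h after irinotecan against stomach of rats that received none (0 h). Its arrays were chosen by tissue and time as the labels give them, which gave 4 of the 30 arrays in the series, with 2 at 72 h and 2 at 0 h. The series measured RNA in stomach, jejunum and colon on Affymetrix Rat 230 2.0 arrays, on which a probe set is a group of short probes for a transcript. All 31042 probe sets other than array controls were tested, and the 10 stomach arrays (0, 1, 6, 24 and 72 h) shared one estimate of the spread. At 72 h the animals were female DA rats, aged 10 weeks by the labels, that had been given 200 mg/kg irinotecan in 1 intraperitoneal injection under light halothane anaesthesia. The 0 h animals were female DA rats of the same labelled age without irinotecan, and the labels do not say whether they were anaesthetised or sham-injected. Sections of whole stomach were frozen after the gut had been flushed with saline, and RNA of 3 rats was pooled for each array. Each time therefore rests on 6 rats in 2 pools, p-values measure the spread between pools, and the spread between single animals cannot be seen. Stomach, jejunum and colon of a given time were taken from 1 set of rats.

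Irinotecan is a prodrug that carboxylesterases convert to SN-38, a compound that traps topoisomerase I on DNA and kills dividing cells. Its damage to the gut lining is known mainly from the intestine. The rat stomach joins a forestomach lined by squamous epithelium to a glandular part. In the glandular part parietal cells secrete acid, chief cells secrete pepsinogens, surface cells secrete mucus, and enterochromaffin-like cells release histamine to stimulate the parietal cells. The pancreas lies against the stomach wall and the liver beside it, so transcripts of both organs were checked on every array.

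The tissue label fitted its defining markers on all 4 arrays. Values are the deposited log2 intensities, on which a difference of 1 is a 2-fold difference. Atp4a, the catalytic subunit of the gastric proton pump, read 13.01 and 12.77 at 72 h (replicates 1 and 2) and 13.02 and 12.92 at 0 h. Pgc, pepsinogen C of chief cells, read 14.09 and 14.09 at 72 h and 14.16 and 14.18 at 0 h. Gkn1, gastrokine 1 of surface mucous cells, read 14.04 and 14.03 at 72 h and 14.09 and 14.13 at 0 h. These 3 transcripts lay near the top of the scale, which ends at 14.32, on every array of both times.

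The 2 arrays at 72 h stood apart from each other. They correlated at 0.9469 over the probe sets, against 0.9703 to 0.9959 for the other 14 replicate pairs of the series. Between them 331 probe sets differed by more than 2 in log2, against 0 to 51 in the other pairs. Of these, 187 were higher on replicate 1, among them 16 of 18 measured pancreatic acinar genes and 11 of 12 hepatocyte genes. The other 144 were higher on replicate 2, among them 22 of 31 squamous epithelial genes. 

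Pancreatic transcripts were high on 72 h replicate 1. Cpa1, carboxypeptidase A1 of acinar cells, read 13.14 and 7.77 at 72 h and 6.89 and 6.94 at 0 h. Prss1, trypsinogen, read 13.60 and 8.30 at 72 h and 6.04 and 6.23 at 0 h. Pnlip, pancreatic lipase, read 13.44 and 8.59 at 72 h and 6.61 and 6.45 at 0 h. All 3 were also above both 0 h arrays on replicate 2, Prss1 and Pnlip by more than Cpa1. Cela1, an elastase, read 13.42 and 10.57 at 72 h and 10.41 and 10.75 at 0 h, so its groups overlapped. The summed level of the 18 acinar genes, as log2 of their added linear intensities, was 17.34 and 15.16 at 72 h and 15.21 and 15.18 at 0 h. This sum is carried by bright members such as Clps, colipase, which read 13.63 and 13.38 at 72 h and 13.87 and 13.75 at 0 h and was the acinar gene wholly below the 0 h arrays. The list median was 13.15 and 8.43 at 72 h and 7.10 and 7.03 at 0 h. On replicate 1, 16 of the 18 genes lay above both 0 h arrays (24.7% of all probe sets did), and on replicate 2, 14 of the 18 did (33%). The part of pancreatic RNA in the results below was not tested, and no acinar gene can be at 0 on this scale, whose lowest value in the series is 3.53.

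Hepatocyte transcripts followed the same array. Alb, serum albumin, read 14.06 and 10.46 at 72 h and 7.00 and 7.29 at 0 h, and so was higher on both 72 h arrays. Ttr, transthyretin, read 12.31 and 7.39 at 72 h and 7.55 and 7.51 at 0 h. Ahsg, the plasma protein fetuin-A, read 11.43 and 6.18 at 72 h and 6.36 and 6.06 at 0 h. Ttr and Ahsg were thus high on replicate 1 and near the 0 h arrays on replicate 2. Apoa1, apolipoprotein A-I, read 12.19 and 9.55 at 72 h and 8.16 and 8.26 at 0 h, and so was higher on both 72 h arrays. On replicate 2, 7 of the 12 hepatocyte genes lay above both 0 h arrays (33% of all probe sets did) and 2 below (46.8%). The summed level of the 12 hepatocyte genes was 15.75 and 11.83 at 72 h and 10.81 and 10.85 at 0 h. Rup2, rat urinary protein 2, showed the same split, at 13.24 and 6.41 at 72 h and 5.47 and 5.32 at 0 h.

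Squamous and striated muscle transcripts were higher on 72 h replicate 2. Krt13, a keratin of stratified epithelium, read 9.08 and 12.80 at 72 h and 7.50 and 10.04 at 0 h, so the arrays of a time differed from each other at both times. Sprr1b, a protein of the cornified envelope, read 7.12 and 11.68 at 72 h and 7.14 and 7.62 at 0 h. The summed level of the 31 squamous genes was 13.54 and 16.41 at 72 h and 13.03 and 14.73 at 0 h. For the 26 striated muscle genes, a list drawn up after the data had been seen, it was 11.93 and 13.15 at 72 h and 11.25 and 11.34 at 0 h. Whole-wall sections carry all of these cell types in unknown proportions, and in such bulk RNA fewer cells of a type and less RNA per cell cannot be told apart.

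**Figure D1:**
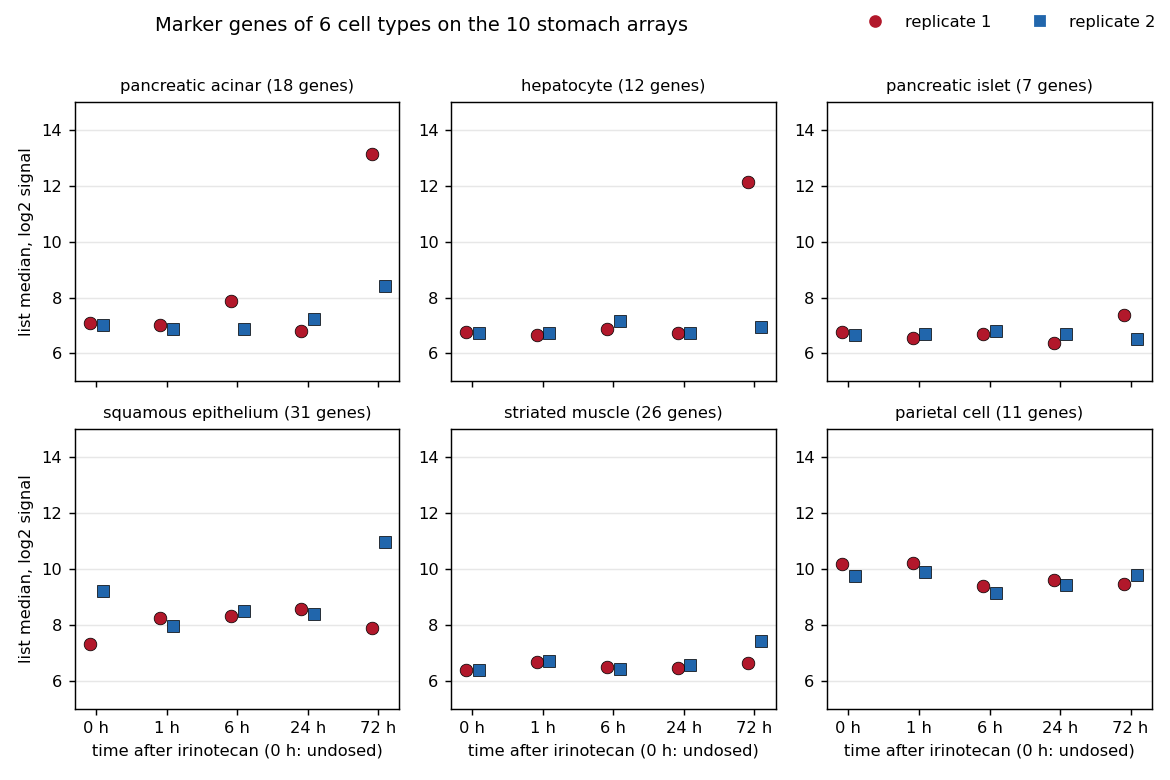
Median log2 intensity (vertical axis) of 6 marker gene lists on the 10 stomach arrays, by hours after irinotecan (0, 1, 6, 24 and 72 h), with circles for replicate 1 and squares for replicate 2. The acinar median is 13.15 on 72 h replicate 1 and 8.43 on 72 h replicate 2, the squamous median is 7.88 and 10.98 on the same arrays, and the parietal median is 9.48 and 9.77.

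Against this background 2 of the 31042 probe sets (0.00644%) passed the test at 72 h against 0 h, both higher, in limma with Benjamini-Hochberg adjustment at an adjusted p of 0.05. No probe set was called lower. At an unadjusted p of 0.05 there were 2346 probe sets (7.56%), of which 885 (2.85%) were higher at 72 h and 1461 (4.71%) lower. The 2 arrays at 72 h lay wholly above the 2 at 0 h for 4177 probe sets (13.5%) and wholly below them for 9164 (29.5%). The median change over all probe sets was -0.042. The count of calls was 118 (0.38%) when all 30 arrays of the series were fitted together and shared the spread. It was 0 without 24 h replicate 1, which enters only the spread, and 0 without either 0 h array, which also changes the 0 h mean and leaves it with 1 array. With the acinar level as a covariate (mean log2 of Cpa1, Prss1, Pnlip and Cela1) it was 231. Acinar transcripts stood out on 72 h replicate 1 (list median 13.15, against 6.80 to 8.43 on the other stomach arrays). The acinar covariate therefore largely sets that array apart, and its fit does not show changes freed of pancreatic RNA. With this covariate and the squamous level (mean log2 of the squamous list) together the count was 0. The 2 called probe sets stayed called in the fit of 30 arrays and without either 72 h array.

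Of the 2 called genes Fetub rose more. It encodes fetuin-B, a liver-made plasma protein that inhibits the protease ovastacin and keeps the coat of the egg fertilisable. It read 11.77 and 10.72 at 72 h and 6.49 and 7.32 at 0 h. Both 72 h arrays lay more than 3 log2 units above either 0 h array. The mean was 11.25 ± 0.74 at 72 h and 6.91 ± 0.59 at 0 h (SD, n = 2 each), a change of 4.34 ± 0.34 (SE), or 20.3-fold, with an adjusted p of 0.0247 in limma. On the other stomach arrays it read 6.65 and 6.73 at 1 h, 6.86 and 6.98 at 6 h and 6.82 and 6.92 at 24 h. In jejunum and colon it read 6.16 to 6.68 on all 20 arrays, so the 2 stomach arrays at 72 h stood alone in the series. Fetub is a hepatocyte product, and both 72 h arrays carried more Alb than the 0 h arrays. On replicate 2 Fetub read 10.72, beside 10.46 for Alb, 9.55 for Apoa1, 7.39 for Ttr and 6.18 for Ahsg. Of these liver genes, Alb and Apoa1 lay above both 0 h arrays on replicate 2, and Ttr and Ahsg did not. The part of liver RNA in the Fetub level was not tested. With the acinar level of each array as a covariate the change was 3.55 with an adjusted p of 0.0107 in limma. That fit rests largely on 72 h replicate 2, because the acinar level sets replicate 1 apart. With acinar and squamous levels both in the fit the call was lost, at 2.20 with an adjusted p of 1.

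Angptl4 was the other called gene. It encodes angiopoietin-like 4, a secreted inhibitor of lipoprotein lipase that fasting and glucocorticoids are known to induce. It read 8.48 and 8.74 at 72 h and 7.09 and 7.17 at 0 h, without overlap and with close replicates. The change was 1.48 ± 0.12, or 2.79-fold, with an adjusted p of 0.0247 in limma. Its level was 7.33 and 7.33 at 1 h, 8.91 and 9.12 at 6 h and 9.41 and 9.24 at 24 h. Every treated array thus stood above both 0 h arrays, by a small margin at 1 h, and the 72 h arrays were below those at 24 h. With acinar and squamous levels both in the fit its change was 1.60, with an adjusted p of 1.

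**Figure D2:**
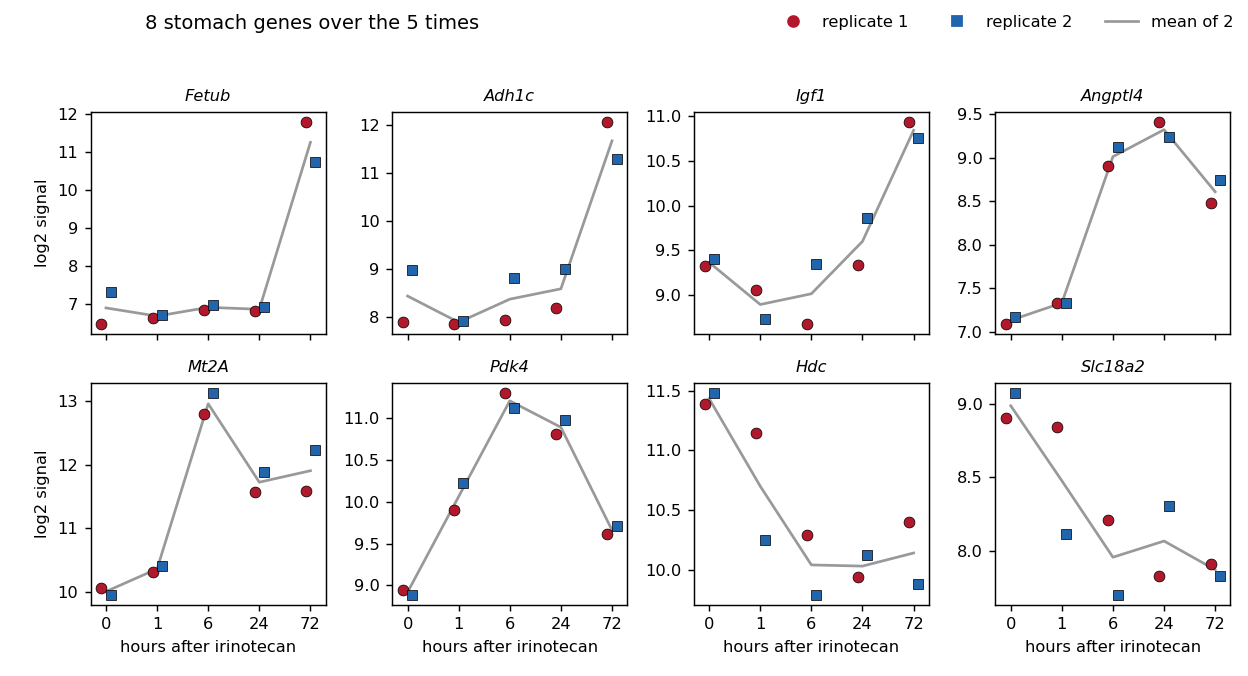
Log2 intensity of 8 genes on the 10 stomach arrays by hours after irinotecan (0, 1, 6, 24 and 72 h, evenly spaced), each point an array of 3 pooled rats and the grey line the mean of the 2 arrays of a time; the vertical axes differ between genes. Fetub lies between 6.49 and 7.32 up to 24 h and at 11.77 and 10.72 at 72 h, while Angptl4 is already at 8.91 and 9.12 at 6 h.

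The promoters of Angptl4, Mt2A and Alb are shown because these genes stand for the 3 groups met below: lipid and fasting genes, stress and metal-binding genes, and liver-type genes. The sequences are from RefSeq, build GRCr8, each 300 bases with 250 before the gene start, all on the minus strand and written 5′ to 3′ along the gene. Angptl4 lies at chr7:15258632-15258931, Mt2A at chr19:10838659-10838958 and Alb at chr14:17906930-17907229. Capitals mark matches, on either strand, to TATAAA (the core of a TATA box), to TGCACNC or TGCGCNC (cores of the metal response element) and to GTTAAT (a half-site of the liver factor HNF1).
Angptl4: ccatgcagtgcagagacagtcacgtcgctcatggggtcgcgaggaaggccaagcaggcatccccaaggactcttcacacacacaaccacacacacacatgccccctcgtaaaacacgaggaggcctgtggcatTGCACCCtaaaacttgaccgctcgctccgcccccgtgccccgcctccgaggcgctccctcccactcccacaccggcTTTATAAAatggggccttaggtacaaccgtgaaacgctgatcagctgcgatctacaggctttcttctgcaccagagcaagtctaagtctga
Mt2A: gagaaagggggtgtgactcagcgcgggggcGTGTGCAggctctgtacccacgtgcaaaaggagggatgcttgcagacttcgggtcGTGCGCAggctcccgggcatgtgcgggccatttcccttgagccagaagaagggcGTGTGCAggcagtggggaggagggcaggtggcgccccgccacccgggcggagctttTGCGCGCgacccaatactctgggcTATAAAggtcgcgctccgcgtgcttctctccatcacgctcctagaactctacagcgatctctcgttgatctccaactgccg
Alb: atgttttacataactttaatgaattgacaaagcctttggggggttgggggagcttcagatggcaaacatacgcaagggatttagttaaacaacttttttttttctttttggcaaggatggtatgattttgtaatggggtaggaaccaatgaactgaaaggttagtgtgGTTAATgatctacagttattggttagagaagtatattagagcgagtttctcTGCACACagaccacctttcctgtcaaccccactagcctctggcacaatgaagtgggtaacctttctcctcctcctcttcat
The Angptl4 promoter held TATAAA on both strands, overlapping each other, with the forward match starting at position -39 relative to the gene start. It also held TGCACNC at -117. The Mt2A promoter held TATAAA at -31 and 4 metal response cores, of which TGCACNC lay on the reverse strand at -220 and -111 and TGCGCNC at -165 (reverse) and -55 (forward). The Alb promoter held GTTAAT at -82 and TGCACNC at -31. Of 33469 promoters of this length, 14.2% held TATAAA, 12.2% TGCACNC, 14.1% TGCGCNC and 7.45% GTTAAT. Half-sites for nuclear receptors such as the PPAR family (AGGTCA, in 16.2% of promoters) and for the glucocorticoid receptor (AGAACA, in 20.7%) were searched as well, and these letters were not in the 3 windows. A match describes letters and is not evidence of binding.

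Genes of the fasting and glucocorticoid lists were the group to which Angptl4 belongs. In the list for fatty acid oxidation and fasting, 11 of 26 measured genes lay above both 0 h arrays and 0 lay below, with a median change of 0.16 and 1 gene called (0.00644% of all probe sets were called, 13.5% did not overlap upward and 29.5% downward). In the list of glucocorticoid targets 9 of 16 lay above, with a median of 0.56 and the same gene called. The 1 below was Sgk1, a kinase of sodium transport, at 10.31 and 10.02 at 72 h and 10.38 and 10.62 at 0 h. Mt2A, a metallothionein that binds zinc and copper and responds to glucocorticoids, read 11.58 and 12.23 at 72 h and 10.06 and 9.96 at 0 h. Both 72 h arrays lay well above the 0 h arrays, with a difference of 1.89 ± 0.21 that missed the threshold (adjusted p = 0.117 in limma, and 0.00268 in the fit of 30 arrays). Mt2A had been higher earlier, at 12.79 and 13.12 at 6 h.

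Pdk4, the kinase that shuts pyruvate out of the citric acid cycle in fasting, read 9.61 and 9.71 at 72 h and 8.95 and 8.89 at 0 h. It was 0.75 ± 0.13 higher without overlap (adjusted p = 0.373 in limma), after 11.29 and 11.11 at 6 h and 10.80 and 10.97 at 24 h. Acot1, a thioesterase that splits acyl-CoA, read 6.76 and 7.98 at 72 h and 5.64 and 6.12 at 0 h, with an adjusted p of 0.656 in limma. Plin2, the coat protein of lipid droplets, read 9.59 and 9.44 at 72 h and 8.69 and 9.01 at 0 h, again without overlap (adjusted p = 0.656). Cebpb, a transcription factor of the acute phase, read 7.99 and 8.96 at 72 h and 7.39 and 7.89 at 0 h, where the nearest arrays of the groups were almost level. Median changes of the glucocorticoid list on the single 72 h arrays were 0.39 on replicate 1 and 0.47 on replicate 2.

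Several genes of liver type or of drug and lipid handling were higher on both 72 h arrays without passing the test. In the hepatocyte list 7 of 12 measured genes lay above both 0 h arrays and 0 below (13.5% and 29.5% over all probe sets), with 0 called by limma. The median change was 2.62, and it was 5.0 on replicate 1 and 0.20 on replicate 2. Alb was 5.11 ± 0.91 higher (adjusted p = 0.455). Adh1c, an alcohol dehydrogenase, read 12.05 and 11.28 at 72 h and 7.90 and 8.99 at 0 h. It was high on both 72 h arrays and more so on replicate 1, with a difference of 3.22 ± 0.45 (adjusted p = 0.235 in limma, and 8.65e-05 in the fit of 30 arrays). Its other probe set read 7.87 and 6.83 at 72 h and 6.14 and 6.39 at 0 h, again higher on replicate 1. Sult1a1, a phenol sulfotransferase, read 11.09 and 11.19 at 72 h and 9.12 and 9.56 at 0 h, a difference of 1.80 ± 0.22 (adjusted p = 0.146).

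Fmo1, a flavin monooxygenase, read 7.92 and 8.30 at 72 h and 7.06 and 7.06 at 0 h. Cyp2f4, a cytochrome P450, read 7.09 and 7.30 at 72 h and 6.46 and 6.31 at 0 h. Both genes had 72 h arrays that lay close together and above the 0 h arrays (adjusted p = 0.274 for Fmo1 and 0.155 for Cyp2f4). Igf1, the growth factor that liver and mesenchyme secrete, read 10.93 and 10.75 at 72 h and 9.33 and 9.40 at 0 h, a difference of 1.48 ± 0.24 (adjusted p = 0.361). Asgr2, a subunit of the asialoglycoprotein receptor, read 8.81 and 8.15 at 72 h and 6.59 and 7.00 at 0 h, a difference of 1.69 ± 0.25 (adjusted p = 0.236). Rarres2, which encodes the chemoattractant chemerin, read 10.99 and 10.66 at 72 h and 9.44 and 9.89 at 0 h. For Igf1, Asgr2 and Rarres2 as well, the lower 72 h array lay above the higher 0 h array. This was a condition of naming them and holds for 13.5% of all probe sets.

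A further group was higher on replicate 1 than on replicate 2 and above both 0 h arrays on each. Hpd, an enzyme of tyrosine breakdown, read 11.22 and 8.13 at 72 h and 6.70 and 6.98 at 0 h. Serpina3n, an acute-phase protease inhibitor, read 10.39 and 8.98 at 72 h and 6.15 and 6.17 at 0 h, with an adjusted p of 0.361 in limma. Apoa4, an apolipoprotein of enterocytes and, in rodents, liver, read 9.62 and 8.12 at 72 h and 6.81 and 6.66 at 0 h. Their differences were 2.84 ± 0.78, 3.53 ± 0.58 and 2.14 ± 0.39. Serpina11, a serpin gene, read 8.75 and 7.80 at 72 h and 6.70 and 6.99 at 0 h. These genes moved with the hepatocyte level of the array, 15.75 and 11.83 at 72 h and 10.81 and 10.85 at 0 h, whose part in them was not tested.

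**Figure D3:**
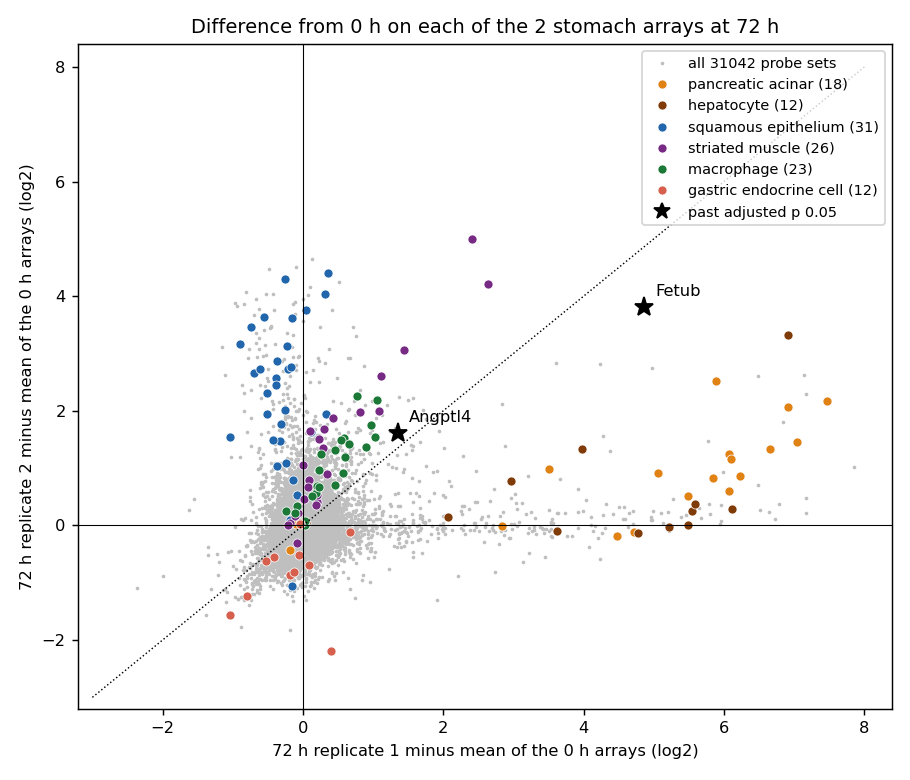
Difference in log2 intensity from the mean of the 0 h arrays for all 31042 probe sets (grey), on 72 h replicate 1 (horizontal) and 72 h replicate 2 (vertical), with the genes of 6 lists in colour, the 2 called genes as stars and a dotted line where the arrays are equal. Acinar and hepatocyte genes (medians 3.34 and 2.62 over both arrays) spread along the horizontal axis, squamous genes along the vertical axis, and Fetub and Angptl4 lie near the dotted line.

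Most macrophage and complement genes were higher on both 72 h arrays, without calls. Macrophages clear dead cells, and complement proteins coat debris for them. Of 23 measured macrophage genes, 19 lay above both 0 h arrays and 0 below (13.5% and 29.5% over all probe sets), 12 had an unadjusted p under 0.05 in the higher direction (2.85%), and 0 passed the adjusted test in limma. Their median change was 0.75, with 0.46 on replicate 1 and 0.98 on replicate 2. The summed level of the list was 13.43 and 14.16 at 72 h and 12.72 and 13.11 at 0 h.

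Cd163, the haemoglobin scavenger receptor of tissue macrophages, read 8.05 and 8.57 at 72 h and 6.84 and 7.21 at 0 h. Cd68, a lysosomal protein of macrophages, read 7.59 and 7.93 at 72 h and 6.92 and 7.11 at 0 h. C1qb, a chain of the complement starter C1q made by macrophages, read 9.01 and 10.14 at 72 h and 7.72 and 8.20 at 0 h. In each of these the 72 h arrays lay above the 0 h arrays, with differences of 1.29 ± 0.31, 0.75 ± 0.19 and 1.62 ± 0.55. Cd14, a co-receptor for bacterial lipopolysaccharide, was 1.36 ± 0.36 higher, Laptm5, a lysosomal protein of leukocytes, 0.58 ± 0.12 higher, and Ctss, cathepsin S, 1.14 ± 0.33 higher. The adjusted p of these 6 genes was 0.594 to 0.656 in limma. Among chemokines, which attract leukocytes, Ccl6 read 9.28 and 10.14 at 72 h and 7.67 and 8.14 at 0 h. Cxcl13, the chemokine of B-cell follicles, read 7.76 and 8.09 at 72 h and 7.03 and 7.20 at 0 h.

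In the complement list 12 of 14 measured genes lay above both 0 h arrays and 1 below (13.5% and 29.5% over all probe sets), with a median change of 0.93. In limma 0 passed the adjusted test while 8 had an unadjusted p under 0.05, all higher (2.85% over all probe sets). The gene below was Masp1, a protease of the lectin pathway, at 7.15 and 7.15 at 72 h and 7.20 and 7.33 at 0 h. Serping1, the inhibitor of C1, read 10.85 and 11.26 at 72 h and 9.24 and 9.97 at 0 h. C1s and C1r, the proteases of C1, were 0.91 ± 0.28 and 0.95 ± 0.31 higher. Cfd, factor D of the alternative pathway and a product of fat cells, read 10.50 and 10.81 at 72 h and 8.87 and 8.72 at 0 h. These 4 were similar on both 72 h arrays or higher on replicate 2. C3, the central complement protein and mainly a liver product, differed from them, at 12.02 and 7.72 at 72 h and 6.19 and 6.32 at 0 h. Cfi, factor I, was likewise highest on replicate 1, at 10.86 and 8.0 at 72 h and 7.12 and 7.26 at 0 h.

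Of 20 cathepsin and lysosome genes, 14 lay above both 0 h arrays and 3 below (13.5% and 29.5% over all probe sets), with a median change of 0.28. In limma 10 had an unadjusted p under 0.05, all higher (2.85%), and 0 were called. The 3 below were Ctsc, cathepsin C, and the lysosomal membrane proteins Lamp1 and Cd63, with differences of -0.46, -0.21 and -0.14. Ctsz, cathepsin Z, read 8.83 and 9.03 at 72 h and 8.41 and 8.33 at 0 h. Lipa, lysosomal acid lipase, read 8.80 and 8.18 at 72 h and 7.73 and 7.69 at 0 h. Ctsl and Ctsh, cathepsins L and H, were 0.74 ± 0.21 and 0.48 ± 0.14 higher. In the acute phase list 14 of 21 lay above both 0 h arrays and 0 below (13.5% and 29.5%), with a median of 0.76 that was 0.25 on replicate 1 and 0.45 on replicate 2 alone. Lbp, the lipopolysaccharide-binding protein, read 8.18 and 7.69 at 72 h and 6.73 and 6.78 at 0 h. Reg3b, an antibacterial lectin of injured gut and pancreas, read 9.49 and 9.36 at 72 h and 7.53 and 8.38 at 0 h.

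Most gastric secretory genes had lower values at 72 h, without calls. In the parietal cell list 9 of 11 measured genes lay below both 0 h arrays and 0 above (29.5% and 13.5% over all probe sets), with a median change of -0.31 and 0 called in limma. The proton pump gene Atp4a was among the least different of the list, at -0.08 ± 0.11. Slc9a4, the sodium-proton exchanger of the parietal basolateral membrane, read 7.69 and 7.31 at 72 h and 8.64 and 8.19 at 0 h, a difference of -0.91 ± 0.20 (adjusted p = 0.594 in limma, and 0.00972 in the fit of 30 arrays). Kcnq1, the potassium channel that acid secretion needs, read 9.46 and 9.28 at 72 h and 10.19 and 9.73 at 0 h. Esrrg, a nuclear receptor of parietal cells, read 10.06 and 9.86 at 72 h and 10.97 and 10.37 at 0 h. Cblif, intrinsic factor, is on this list although rat chief cells make it, and read 12.50 and 12.51 at 72 h and 12.99 and 12.90 at 0 h. Slc9a4, Kcnq1, Esrrg and Cblif were the 4 genes of the list with an unadjusted p under 0.05 in limma (4.71% of all probe sets in the lower direction). In none of them did the groups overlap, and Cblif does not speak for parietal cells alone.

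Among 6 chief cell genes the median change was -0.14, and 4 lay below both 0 h arrays and 0 above (29.5% and 13.5% over all probe sets). In limma 2 of the 6 had an unadjusted p under 0.05, both lower (4.71% over all probe sets). Pga5, a pepsinogen of the A type, read 8.02 and 8.23 at 72 h and 9.44 and 9.23 at 0 h, a difference of -1.21 ± 0.18 (adjusted p = 0.236 in limma, and 0.000896 in the fit of 30 arrays). Bhlha15, the transcription factor Mist1 that shapes secretory cells, read 7.82 and 7.20 at 72 h and 8.86 and 8.32 at 0 h. Both were lower on each 72 h array, while Pgc was -0.08 ± 0.09. Cym, the milk-clotting protease chymosin, went the other way, at 9.70 and 11.96 at 72 h and 10.06 and 8.01 at 0 h. Its difference of 1.79 ± 0.80 (adjusted p = 0.658) was larger in size than that of any other gene of the list, its groups overlapped, and its replicates lay far apart at both times. Among 10 mucous genes 4 lay below both 0 h arrays and 0 above (29.5% and 13.5% over all probe sets). Muc5ac, the gel-forming mucin of surface cells, was the only mucous gene with an unadjusted p under 0.05 in limma (4.71% lower over all probe sets). It read 12.84 and 11.76 at 72 h and 12.98 and 13.01 at 0 h. Its lower value rested mostly on replicate 2, the array with the higher squamous level.

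Genes of the histamine-making cell were lower on both 72 h arrays. Hdc, the enzyme that makes histamine from histidine, read 10.40 and 9.88 at 72 h and 11.39 and 11.48 at 0 h, a difference of -1.29 ± 0.30 (adjusted p = 0.636 in limma, and 0.00972 in the fit of 30 arrays). Slc18a2, the transporter that loads histamine into vesicles, has 3 probe sets, and the one with the smallest p, which is the dimmest, read 7.91 and 7.83 at 72 h and 8.90 and 9.07 at 0 h. Its difference was -1.11 ± 0.26 (adjusted p = 0.637 in limma, and 0.0126 in the fit of 30 arrays). The brightest probe set read 9.24 and 8.81 at 72 h and 10.00 and 10.08 at 0 h, a difference of -1.01 ± 0.25 (adjusted p = 0.651). Chga, chromogranin A of secretory granules, read 11.55 and 11.46 at 72 h and 12.02 and 12.13 at 0 h. In all 3 the groups did not overlap, as in 29.5% of all probe sets in this direction. Ghrl, which encodes the hunger hormone ghrelin, read 12.68 and 12.53 at 72 h and 13.06 and 13.12 at 0 h (-0.48 ± 0.23, adjusted p = 0.662).

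The 12 gastric endocrine genes had a median change of -0.47, which was -0.09 on replicate 1 and -0.65 on replicate 2, and 7 lay below both 0 h arrays (29.5% over all probe sets). Hdc stood below both 0 h arrays at every treated time, with 11.15 and 10.25 at 1 h, 10.29 and 9.79 at 6 h and 9.94 and 10.12 at 24 h.

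Other genes lower by at least 1 in log2 without overlap included Grp, the neuropeptide that stimulates gastrin release, at 8.87 and 8.51 at 72 h and 9.97 and 9.61 at 0 h (adjusted p = 0.236). Clca1, a secreted regulator of mucus and chloride transport, read 8.04 and 9.30 at 72 h and 10.33 and 10.47 at 0 h. Aqp4, the water channel of rodent parietal cells, read 8.62 and 8.62 at 72 h and 10.15 and 9.30 at 0 h. Atl1, an endoplasmic reticulum protein, read 7.62 and 7.35 at 72 h and 8.57 and 8.62 at 0 h. Absence of overlap was a condition of naming these 4, and 29.5% of all probe sets lay wholly below the 0 h arrays. Cltrn, a membrane protein related to angiotensin-converting enzyme 2, read 5.91 and 6.03 at 72 h and 6.81 and 6.70 at 0 h, a small and tight difference of -0.79 ± 0.09 (adjusted p = 0.133 in limma).

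**Figure D4:**
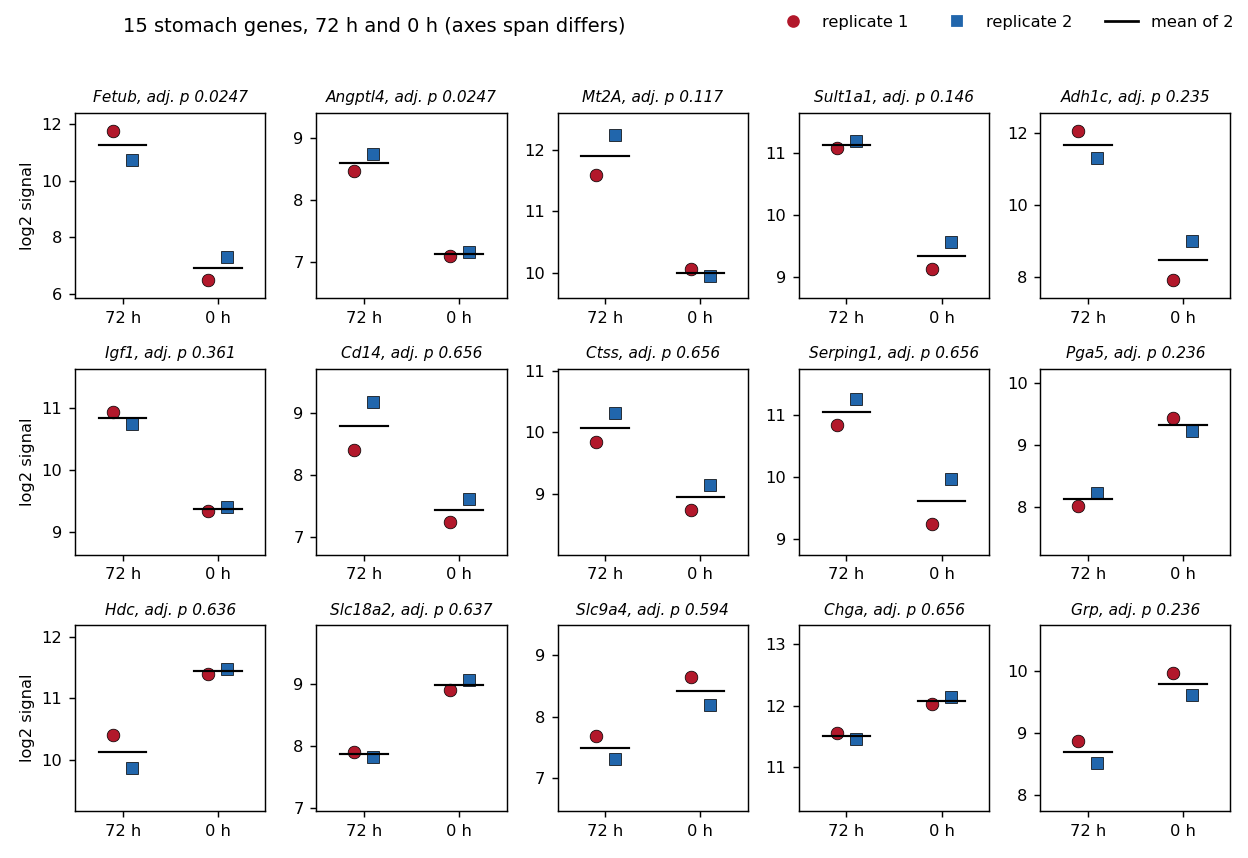
Log2 intensity of 15 genes on the 72 h arrays (left) and the 0 h arrays (right) of the stomach, with circles for replicate 1, squares for replicate 2, a bar for the mean of both and the adjusted p from limma above each panel; the vertical axes differ between genes. The arrays of the 2 times do not overlap in any of the 15 genes, which for many of them was a condition of being named. Over all probe sets 43% do not overlap. The adjusted p is 0.0247 for Fetub and Angptl4 and 0.117 or more for the others.

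Several striated muscle genes were higher on both 72 h arrays, and more so on replicate 2. Myl11, the regulatory light chain of fast fibres, read 8.94 and 10.52 at 72 h and 6.38 and 6.23 at 0 h, a difference of 3.43 ± 0.45 (adjusted p = 0.193 in limma). Myl1, an alkali light chain, read 8.02 and 10.60 at 72 h and 5.66 and 5.56 at 0 h. Mb, myoglobin, read 7.45 and 9.07 at 72 h and 5.94 and 6.07 at 0 h. All 3 were above the 0 h arrays on each 72 h array. Ckm, muscle creatine kinase, and the fast troponin genes Tnni2 and Tnnc2 were 1.40 ± 0.32, 1.54 ± 0.31 and 1.87 ± 0.44 higher. Of the 26 genes of this list, which was drawn up after the data had been seen, 16 lay above both 0 h arrays on each 72 h array and 1 below (13.5% and 29.5% over all probe sets). The median was 0.48, made of 0.19 on replicate 1 and 0.85 on replicate 2. On replicate 1 alone, 4 genes lay below both 0 h arrays. The gene below on both was Tnnt3, fast troponin T, whose brightest probe set was -0.20 ± 0.13 and whose other probe set was 1.35 higher. Smooth muscle genes, the muscle of the stomach wall itself, had a median change of 0.05 over 15 genes, with 0 past an unadjusted p of 0.05 in limma.

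Squamous genes did not separate the groups upward. Of 31 measured, 0 lay above both 0 h arrays and 1 below (13.5% and 29.5% over all probe sets), and 0 had an unadjusted p under 0.05 in limma. The median difference was 1.04, made of -0.26 on replicate 1 and 2.46 on replicate 2, and the 0 h arrays themselves had list medians of 7.31 and 9.22. The gene below was Dsc2, a desmosomal cadherin, at 9.23 and 8.33 at 72 h and 9.45 and 9.33 at 0 h.

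Genes tied to irinotecan and to DNA damage were not called at 72 h. The drug's target Top1, topoisomerase I, read 9.47 and 9.31 at 72 h and 9.66 and 9.63 at 0 h (-0.25 ± 0.17, adjusted p = 0.7). Ces1d, a carboxylesterase able to activate irinotecan and abundant in rodent liver, lung and fat, read 9.58 and 9.29 at 72 h and 7.32 and 7.97 at 0 h. It was 1.79 ± 0.54 higher without overlap, with an adjusted p of 0.656 in limma. The 20 measured p53 targets, genes that DNA damage is known to induce, had a median change of 0.03. Cdkn1a, which encodes the cell-cycle brake p21, read 9.33 and 8.67 at 72 h and 8.93 and 8.99 at 0 h. Mdm2, the ubiquitin ligase that turns p53 over, read 8.61 and 8.80 at 72 h and 8.62 and 8.80 at 0 h. Ccng1, cyclin G1, read 9.94 and 10.14 at 72 h and 9.95 and 9.70 at 0 h. The groups overlapped in all 3 of these p53 targets, and a p above the threshold does not show that they were equal.

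The 27 mitosis genes pointed opposite ways on the 2 arrays at 72 h. All 27 lay above both 0 h arrays on replicate 1 (24.7% of all probe sets did), with a median change of 0.46, whereas 19 lay below both on replicate 2 (46.8% of all probe sets did), with a median of -0.15. Over both arrays 0 passed an unadjusted p of 0.05 in limma. The 26 DNA replication genes had a median of 0.10, and 7 lay above both 0 h arrays (13.5% over all probe sets). Chaf1a, a histone chaperone of replication, was 0.51 ± 0.16 higher, and Fen1, the flap endonuclease that trims Okazaki fragments, was 0.29 ± 0.09 higher (both adjusted p = 0.656).

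**Figure D5:**
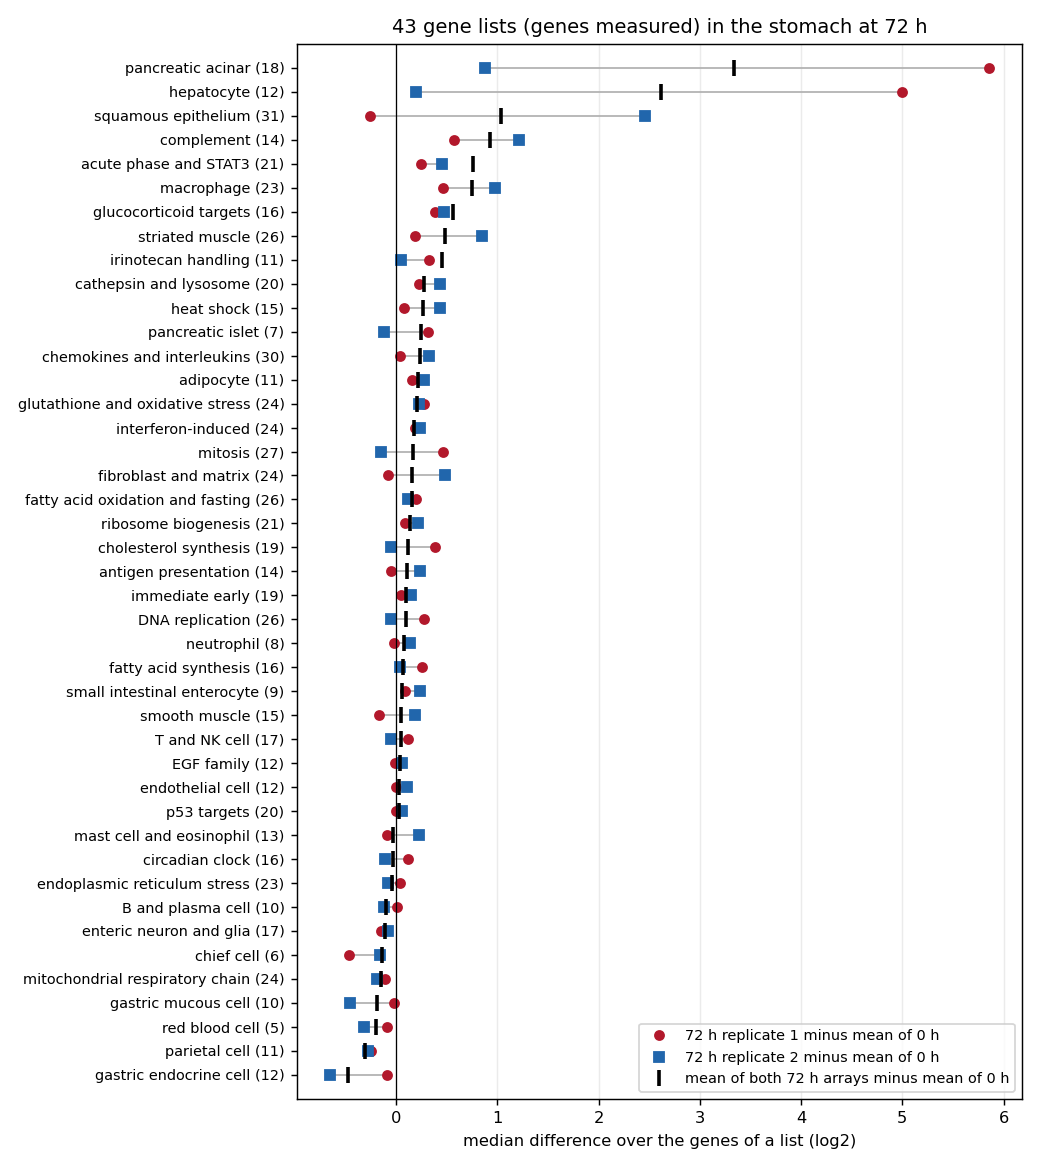
Median difference in log2 intensity from the mean of the 0 h arrays for each of 43 gene lists (number of measured genes in brackets), with circles for 72 h replicate 1, squares for 72 h replicate 2 and a bar for both. The mitosis list lies at 0.46 and -0.15, the macrophage list at 0.46 and 0.98, and the squamous list at -0.26 and 2.46.

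Antioxidant genes were mostly higher at 72 h, without calls. Of 24 glutathione and oxidative stress genes 13 lay above both 0 h arrays and 0 below (13.5% and 29.5% over all probe sets), with 6 past an unadjusted p of 0.05, all higher (2.85%), and 0 called in limma. Prdx6, a peroxiredoxin, read 10.38 and 10.55 at 72 h and 10.05 and 10.03 at 0 h. Sod1, the cytosolic superoxide dismutase, read 12.17 and 12.10 at 72 h and 11.66 and 11.74 at 0 h. Gpx2, the epithelial glutathione peroxidase, read 10.70 and 10.33 at 72 h and 9.52 and 9.93 at 0 h. Gsta4, a glutathione transferase for lipid aldehydes, was 1.01 ± 0.32 higher. In these 4 genes the groups did not overlap. Hsp90ab1, a constitutive chaperone, was 0.40 ± 0.09 higher, and Nsdhl, an enzyme of cholesterol synthesis, was 0.73 ± 0.17 higher (both adjusted p = 0.636).

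Xbp1, Asns, Chac1 and most genes of the respiratory chain were lower at 72 h, without calls. Xbp1, the transcription factor that enlarges the endoplasmic reticulum, read 11.84 and 11.73 at 72 h and 12.56 and 12.26 at 0 h. Asns, asparagine synthetase of the amino acid response, read 9.38 and 9.22 at 72 h and 10.18 and 9.88 at 0 h. Chac1, a glutathione-degrading enzyme of the same response, read 7.76 and 8.11 at 72 h and 8.47 and 8.27 at 0 h. The 3 were lower on each 72 h array, but the list of 23 endoplasmic reticulum stress genes had a median of only -0.04. In this list 10 genes changed upward and 13 downward. Of the 23, 5 lay below both 0 h arrays and 2 above (29.5% and 13.5% over all probe sets). In limma 4 had an unadjusted p under 0.05, all lower (4.71%). Of 24 respiratory chain genes 14 lay below both 0 h arrays and 0 above, against 29.5% and 13.5% over all probe sets, with a median of -0.15. In limma only 1 of the 24 had an unadjusted p under 0.05, in the lower direction (4.71% over all probe sets). Sdha, a subunit of succinate dehydrogenase, was -0.29 ± 0.11. Among 16 circadian clock genes, Nr1d1 and Dbp were -0.50 ± 0.15 and -0.34 ± 0.11, and the labels do not give the time of day of sampling.

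Because the 72 h arrays differed so much from each other, the calls made without each of them in turn were compared. Without replicate 1 there were 321 calls (1.03%) and without replicate 2 there were 344 (1.11%), in fits where the lone array is assumed to vary like the other groups. Only 29 probe sets (0.0934%) were called in the same direction in both, with 27 higher and 2 lower. Fetub, Angptl4, Mt2A, Sult1a1, Adh1c, Asgr2, Cyp2f4 and Tmem37 were among the higher ones, beside liver-type genes such as Alb and Hpd. Tmem37, which encodes a small membrane protein, read 8.13 and 8.05 at 72 h and 7.07 and 7.23 at 0 h. The set also held pancreatic genes, among them Cpb1, Rnase1l2 and Prss3b, and the muscle genes Myl1, Myl11 and Mb. Cpb1, carboxypeptidase B1, read 13.98 and 8.39 at 72 h and 6.90 and 6.97 at 0 h, so a transcript of another organ passed on each array alone. Rnase1l2 and Prss3b read 9.63 and 8.71 on 72 h replicate 2, against at most 7.14 and 6.15 at 0 h. Cltrn was the named gene called lower. Of the 24 genes so called that have a symbol, 22 were in the promoter table. Among these 22, TATAAA was in 6 (14.2% over all promoters), TGCACNC in 5 (12.2%) and TGCGCNC in 2 (14.1%). GTTAAT was in 5 (7.45%), AGGTCA in 4 (16.2%) and AGAACA in 4 (20.7%). These counts were not tested against the shares.

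The 72 h arrays were also set against the mean of the arrays at 1, 6 and 24 h, which asks how the latest time differed from the earlier treated ones. Of 31042 probe sets 1 was called (0.00322%) in limma, and 5399 had an unadjusted p under 0.05 (17.4%). The call was Fetub, with a difference of 4.42 ± 0.28 and an adjusted p of 0.00679. Next to it, without passing, Tmem37 was 0.91 higher (adjusted p = 0.0582) and Adh1c 3.37 higher (adjusted p = 0.0745). Igf1 was 1.67 higher at 72 h than at the earlier times (adjusted p = 0.0914). In the other direction Pdk4 was -1.05 ± 0.10 (adjusted p = 0.0745). Angptl4 was 0.05 ± 0.10 with an adjusted p of 0.785, so its 72 h level lay within that of the earlier treated arrays, 7.33 to 9.41. The count was 0 without any single array at 1 h or 6 h, 15 without 24 h replicate 2, and 493 and 415 without 72 h replicate 1 and 2.

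The change in the stomach was finally compared with that in jejunum and colon of the same rats, by the difference of the 72 h changes in a fit of all 30 arrays. The stomach change differed from that of jejunum for 853 probe sets (2.75%), 234 higher and 619 lower in the stomach, and from that of colon for 70 (0.226%), 28 higher and 42 lower. Without 0 h replicate 1 of the stomach these counts were 162 and 7, without 0 h replicate 2 they were 514 and 32, without 72 h replicate 1 they were 1501 and 470, and without 72 h replicate 2 the colon count was 484. For comparison, 5919 probe sets (19.1%) were called in jejunum and 787 (2.54%) in colon at 72 h against 0 h. Fetub differed from both, with changes of 4.34 in stomach, -0.31 in jejunum and 0.03 in colon. Angptl4 was 1.48 in stomach, against -0.13 in jejunum and 1.64 in colon, and its difference from jejunum was called (adjusted p = 0.0371) while that from colon was not (adjusted p = 0.941).

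The p53 target Ccng1 separated stomach and jejunum, at 0.22 in stomach against 1.61 in jejunum. Asns differed in sign, at -0.73 in stomach against 1.25 in jejunum and 1.22 in colon. Ctss was 1.14 in stomach against -0.40 in jejunum, and Gsta4 1.01 against -0.78. Pga5 and Hdc, which the gastric glands express, were -1.21 and -1.29 in stomach, against -0.09 and -0.07 in jejunum. Each of these 6 differences from jejunum passed the adjusted test in limma, as did those of Pga5 and Asns from colon. Dbp was -0.34 in stomach against -1.81 in jejunum, which also passed. Pancreatic transcripts were again unevenly spread in this comparison: the 72 h minus 0 h difference of Cpa1 was 3.54 in stomach, against -0.22 in jejunum and 2.51 in colon.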

How the data were processed

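RNA of whole stomach was measured on Affymetrix Rat 230 2.0 arrays. The deposited log2 intensities come from RMA, as stated in the submitters' processing notes. The sources used here name neither its version nor which arrays were run in 1 batch of processing. Values were used as deposited, and array medians were 6.965 to 7.055. The 57 array control probe sets of 31099 were not tested. Of the 31042 tested, 20826 have 1 symbol, 436 several and 9780 none, and only the 20826 are named. The number of arrays limits the precision: the median standard error of a change was 0.122.

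Tests were limma 3.58.1 in R 4.3.3 with lmFit, eBayes and Benjamini-Hochberg adjustment over all 31042 probe sets, with 5 times of 2 arrays each. The tissue differences used 15 groups and 30 arrays, treating tissues of the same rats as independent. On simulated data for 72 h against 0 h, run on 31042 probe sets, the test recovered 77% of 2-fold and 96% of 4-fold changes and made 7 false calls. The simulated noise was independent between probe sets and had the same spread at every time. In the real data 331 probe sets differed by more than 2 between the 72 h arrays, against 0 to 51 in other pairs. The simulated recovery therefore need not hold for this comparison.

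The brightest probe set over the 10 stomach arrays stands for a gene in counts and medians of the 43 lists, of which 735 of 828 entries were measured. Genes were named if called; or by the 12 smallest p in each direction among changes of at least 1 without overlap, with the probe set of smallest p; or if called without either 72 h array; or as up to 8 members of a list by p and its defining markers. Ahsg, Cdkn1a, Mdm2, Cyp2f4, Serpina11, Tmem37, Clps, Masp1, Ctsc, Lamp1, Cd63, Tnnt3 and Sgk1 were named after their values were seen. The comparison, its genes and its lists were chosen with earlier results of these data known. The striated muscle list and the hepatocyte, striated muscle and joint pancreatic and squamous covariates were chosen after seeing the data. Alternatives were another normalization, priors, weights, filters, probe sets, the replicate block, covariates and each array left out. Replicate numbers were not used as pairs, since the labels tie them to no shared animals and not every pair of times correlated above 0.1.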

Additional observations from a re-analysis of the deposited data

Results flagged for a closer look

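Changes at 72 h against 0 h that differed between the stomach and another tissue past an adjusted p of 0.05 in limma are given here as stomach minus the other tissue, in log2. The 2 arrays per tissue and time limit each of them.

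Liver-type and drug-handling genes were higher in the stomach's change. Fetub differed by 4.65 from jejunum and 4.31 from colon. Alb differed by 5.43 from jejunum and 5.02 from colon, and Adh1c by 2.67 and 3.51. Serpina11 differed by 1.64 from jejunum and 1.46 from colon, and Cyp2f4 by 0.99 and 1.01. Hpd differed from jejunum by 3.30 and Asgr2 by 1.51.

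Muscle genes behaved likewise. Myl11 differed by 3.36 from jejunum and 3.44 from colon, Myl1 by 3.81 and 3.90, and Mb by 2.38 and 2.35. Ckm differed by 1.26 and 1.71, and Tnni2 by 1.59 and 1.57.

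The gastric genes Pga5 and Hdc were lower. Pga5 differed by -1.11 from jejunum and -1.11 from colon, and Hdc by -1.22 from jejunum. Cltrn, which is on no gastric list, differed by -0.66 from jejunum and -0.99 from colon.

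For the other genes the value against jejunum was 1.61 for Angptl4, 1.54 for Ctss, 1.79 for Gsta4, 0.87 for Nsdhl, 1.47 for Dbp -0.80 for Cd63 and -1.40 for Ccng1. Asns differed by -1.98 from jejunum and -1.95 from colon.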

How the results depend on the processing

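The 2 calls at 72 h against 0 h were the count also with dim probe sets dropped, with quantile normalization and with array weights. The count was 7 with a trended robust prior, 14 with the replicate block, 118 in the fit of 30 arrays, 0 without 24 h replicate 1, 231 with the pancreatic covariate, 4 with the squamous, 322 with the hepatocyte, 343 with the striated muscle and 0 with both pancreatic and squamous covariates. Leaving out a 72 h or 0 h array gave 0 to 344 calls. Against 1, 6 and 24 h the 1 call became 11, 72 and 1030 with the prior, the block and 30 arrays, and 350, 17, 434, 372 and 0 with the covariates in the same order, or 0 to 493 with an array left out. The 853 differences from jejunum were 1893 with array weights and 162 to 1501 with an array left out, and the 70 from colon 39 with dim probe sets dropped and 7 to 484 with an array left out. The list genes called, 1 as reported, were 0 to 52 with an array left out. The block changed no other count past 1.5 times. Replicate 1 minus 2 differences correlated at 0.43 between 0 h and 72 h, and above 0.1 for 6 of the 10 pairs of stomach times, the lowest being -0.05. The labels do not say that a number marks shared animals or a batch, and not every pair passed 0.1, so the block is given here only as an alternative.

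Of 106 named genes, a count that leaves out Apoa1, 34 were called in the fit of 30 arrays, where 0.38% of all probe sets were. Many of these genes had been named for a small p in the same stomach arrays, so the count is not independent support. Signs turned in 45 of the alternative values of single genes, and the cause was not tested. With the pancreatic covariate these were Ttr -1.38, Ahsg -1.26, Cpa1 -0.54, Cela1 -0.91, Rup2 -0.58, Cdkn1a -0.46 and Mdm2 0.15. With the hepatocyte covariate they were Ttr -0.81, Ahsg -0.73, Cela1 -0.46, Cdkn1a -0.38 and Mdm2 0.12. With pancreatic and squamous covariates they were Ttr -1.02, Ahsg -0.29, Esrrg 0.10, Aqp4 0.25, Cpa1 -0.47, Cela1 -0.83, Cdkn1a -0.34, Gpx2 -0.04, Ctsc 0.18 and Lamp1 0.10. With the squamous covariate Atp4a was 0.01. With the striated muscle covariate Cebpb was -0.21, Atp4a 0.16, Muc5ac 0.28, Krt13 -1.70, Sprr1b -2.53, Dsc2 0.06, Cym -0.31 and Tnnt3 0.03. With an array left out, the lowest and highest values were -0.14 and 4.78 for Ttr, -0.04 and 5.21 for Ahsg, -0.01 and 2.84 for Cela1, -0.29 and 0.36 for Cdkn1a, -0.10 and 0.09 for Mdm2, -0.19 and 0.04 for Atp4a, and -0.26 and 4.30 for Sprr1b. The turned signs came without 72 h replicate 1 for Ttr, Ahsg, Cela1, Cdkn1a and Mdm2 (without 0 h replicate 2 Mdm2 was 0.08), and without 72 h replicate 2 for Atp4a and Sprr1b. With quantile normalization Cdkn1a was -0.01. Other probe sets gave Mdm2 0.17 and 0.09, Top1 0.06, Masp1 0.07 and Tnnt3 1.35.

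Each time has 2 pools of 3 rats, and changes below 2-fold were not simulated. The part of pancreatic, hepatic, squamous and striated muscle RNA and that of the time cannot be told apart in these 4 arrays. The adipocyte list had medians of 8.98 and 9.01 at 72 h and 8.28 and 8.13 at 0 h. Of its 11 measured genes, 6 lay above both 0 h arrays and 4 below (13.5% and 29.5% over all probe sets). The part of fat RNA was not tested. Acinar and hepatocyte levels stood out on 72 h replicate 1 and the striated muscle level on replicate 2. Covariates of these levels therefore largely set 1 array apart.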
